A study of Mus musculus with 6 samples.

Results

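Melanocytes are the pigment cells of the choroid, the vascular layer behind the retina, and 193 of 66018 kept cell barcodes were taken as melanocytes here. Members were chosen by their own measured transcripts. A kept barcode held 500 or more UMIs (unique molecular identifiers, which count captured RNA molecules once each) from 300 or more genes, with no more than 20% of them mitochondrial. It was taken as a melanocyte when at least 2 of Mlana, Pmel, Dct, Tyrp1 and Slc24a5 were detected with at least 5 UMIs in all, Rpe65 was absent, Ttr made up less than 0.5% of UMIs and at most 2 UMIs were from Dcn. The cells came from the posterior cup of mouse eyes (sclera, choroid and retina) in a study of ciliary muscle activity and myopia. In the tropicamide group the eyes received 6 drops of tropicamide, a muscarinic receptor antagonist that relaxes the ciliary muscle, at 10 min intervals, and were taken after a wait of 1 h. Saline drops were given at the same interval in the other group. Each group had 12 mice, only right eyes were used, and 4 eyes were pooled per library, giving 3 pools per group. The labels give no strain, age or sex. The lens, cornea, iris and ciliary body were cut away. The files hold no positions, so the choroidal origin of the cells rests on the dissection and was not tested.

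Melanocytes arise from the neural crest and make melanin in lysosome-related organelles called melanosomes, whereas the retinal pigment epithelium (RPE), the other pigmented layer of the posterior eye, arises from the optic cup. Both carry the melanin machinery of tyrosinase-family enzymes, the fibril protein PMEL and ion transporters. The crest lineage is told from the RPE by SOX10 and the endothelin receptor EDNRB, and in both lineages MITF activates pigment genes through short E-box motifs. In the choroid, pigment absorbs stray light that has passed the retina.

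The rule admitted cells of 3 kinds, which were separated after their values were seen. In 137 of the 193 cells the 5 rule genes held at least 1% of UMIs, and these are called pigment-rich. Among them 78 had a UMI of Ednrb or Sox10, neither of which the rule used, and 59 did not. The other 56 cells were pigment-poor, with a median of 0.282% of UMIs from the rule genes against 4.21% in the 78 cells. Of the pigment-poor cells, 6 had an Ednrb UMI and 2 a Sox10 UMI.

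Ranked by ratio to the other kinds of members, the 78 cells were led by Ednrb and then by Syt4, a synaptotagmin found in 58 of them, Spp1, the osteopontin gene, in 64, Kcnj13, a potassium channel that the RPE also uses, in 60, and Selenop, a selenium carrier, in 76. Slc45a2, a melanosomal transporter, was found in 58 and S100b, a calcium-binding protein of crest derivatives, in 73. The 59 pigment-rich cells without either gene were shallow, with a median of 727 UMIs against 2979 in the 78 cells. Ednrb or Sox10 was detected in 29.3% of the 58 cells between 500 and 1000 UMIs, 65.4% of the 26 cells up to 2000 and 89.5% of the 19 cells up to 5000, but 79.4% of the 34 deeper cells. Of the cells without either gene, 12 had at least 1500 UMIs. Their leading genes were Slc4a4 (a bicarbonate transporter), Myh11 (smooth muscle myosin), Gem, Kcnip4 and Pld5. Pax6 was found in 8 of the 12 cells and 0 of the 78, and the keratin gene Krt18 in 6 and 2. Kit and Pax3 had no UMI in the 12 cells, while Mitf was found in 5 of them and Tyr in 10. These 12 cells were given no name, and what they are was not tested.

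The data went against the melanocyte label for some of the pigment-poor cells. The leading genes of these 56 cells were Krt12, the corneal epithelial keratin, Nrxn3, a neurexin, Sfn and Opn1sw, the short-wave cone opsin. Each of these genes was found in 4 to 9 of the 56 cells. Rod genes held a median of 3.10% of UMIs in the 56 cells against 0.423% in the 78. Of the 979 Krt12 UMIs of saline pool 2, 978 came from 1 cell. Although the cornea was cut away, Krt12 also had a UMI in 3.61% to 10.6% of rods by pool. The share of all members' UMIs that came from pigment-poor cells was 36.3%, 28.4% and 13.0% in tropicamide pools 1 to 3 and 21.2%, 70.0% and 49.9% in saline pools 1 to 3. Values below are therefore given for all 193 cells and, where they differ, for the pigment-rich cells and the 78. Pigment-rich sums still held many UMIs from cells without Ednrb or Sox10. In saline pool 1 these cells gave 61195 of 69369 pigment-rich UMIs, 43340 of them in 1 cell. In tropicamide pool 3 they gave 39738 of 74647.

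**Figure D1:**
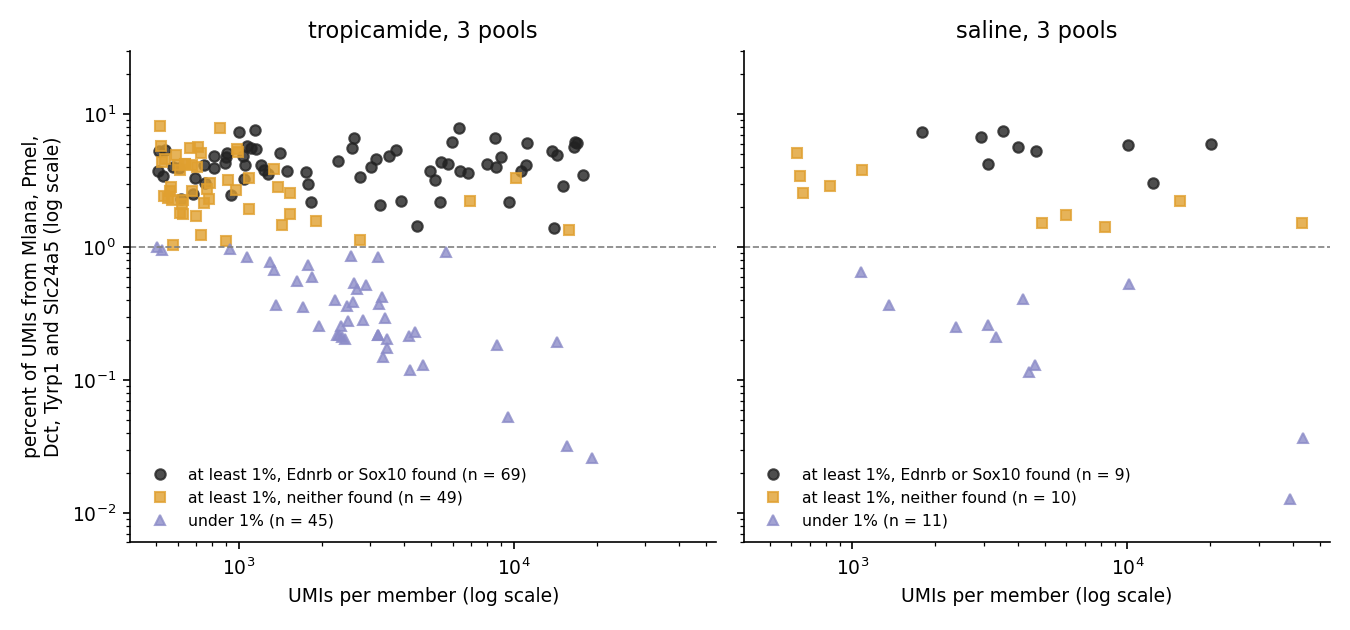
UMIs per cell (horizontal, log scale) and the percent of UMIs from the 5 rule genes (vertical, log scale) for each of the 193 cells, 163 from the tropicamide pools and 30 from the saline pools. Circles are pigment-rich cells with Ednrb or Sox10, squares pigment-rich cells with neither and triangles pigment-poor cells, and the dashed line marks 1%. The squares gather at low UMIs, and the deepest saline cells lie just above or below the line.

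The rule's edges were as follows. Outside the total of 5 UMIs lay 71 barcodes with a total of 3 and 21 with 4, and just inside lay 16 with 5 and 7 with 6. An Ednrb UMI was found in 5 of those with a total of 3, 1 with 4, 0 with 5 and 1 with 6. The pigment minimum was met by 1139 barcodes, of which 781 were left out for Rpe65, 149 for Ttr and 16 for Dcn. No member's barcode was shared with a member of another pool.

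Summed over members, lists for other classes were low, apart from rods. Rpe65 was absent by rule. The 14 RPE genes together made up 0.0298% to 0.103% of member UMIs after tropicamide and 0.00675% to 0.141% after saline. Genes of rods, the most numerous cells of the retina, made up 1.18%, 1.20% and 1.26% after tropicamide and 0.677%, 0.150% and 0.931% after saline, so the rod list was higher in every tropicamide pool. In pigment-rich cells the groups overlapped, at 0.711%, 0.563% and 0.748% against 0.310%, 0.169% and 0.873%, and RPE cells of the same pools held 0.209% to 0.508%. Endothelial, macrophage, red blood cell and ciliary or iris epithelium genes each stayed under 0.1% in every pool. Fibroblast genes, with Dcn limited by the rule, made up 0.0682% to 0.0947% after tropicamide and 0.0135% to 0.213% after saline. Single cells could hold far more of another class, as with Krt12 above. Mki67, a marker of dividing cells, had a UMI in 1 cell and Top2a in 0 of 193, which allows a share of up to 1.55% for counting error only.

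The 5 rule genes, whose levels are bound by the rule, were highest in the 78 cells. Levels are given as CPM, the UMIs of a gene over all UMIs of the summed members of a pool, scaled to 1000000. Averaged over 6 pools, Dct (dopachrome tautomerase) stood at 8778, Pmel at 6122, Mlana (a melanosome protein) at 4367, Tyrp1 (a tyrosinase-related enzyme) at 3465 and Slc24a5 (a melanosomal cation exchanger) at 996. In the 78 cells these values were 15870, 14391, 8725, 8456 and 2298, and in pigment-poor cells they ran from 176 for Slc24a5 to 828 for Dct. RPE cells, 1597 barcodes with at least 2 of 6 RPE genes, held 1935 CPM of Dct and 427 of Slc24a5. Slc24a5 was the least selective of the 5, with a UMI in 19.0% to 22.9% of rods, against 0.343% to 1.96% for Dct.

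Short stretches of promoter are shown for Dct, Tyrp1, Slc24a5 and Tyr, the tyrosinase gene, each of which held the letters TCATGTG, known as the M-box, a form of the E-box that MITF binds. The windows run from 250 bases before to 50 after the RefSeq transcript start (mouse build GRCm38.p6, where the counts used GRCm39), and both strands were searched. The motif is in capitals, reading CACATGA where it lies on the other strand. The Dct stretch is chr14:118052351-118052437 (minus strand), that of Tyrp1 chr4:80834126-80834212 (plus), that of Slc24a5 chr2:125068074-125068126 (plus) and that of Tyr chr7:87493513-87493574 (minus).
Dct: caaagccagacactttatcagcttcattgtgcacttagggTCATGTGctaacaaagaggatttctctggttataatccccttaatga
Tyrp1: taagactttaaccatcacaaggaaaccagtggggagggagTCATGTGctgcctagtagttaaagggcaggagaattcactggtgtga
Slc24a5: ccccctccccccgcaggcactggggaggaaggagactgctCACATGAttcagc
Tyr: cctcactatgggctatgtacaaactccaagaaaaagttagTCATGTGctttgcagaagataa
The motif begins at position -151 from the transcript start in Dct, -47 in Tyrp1, -13 in Slc24a5 and -22 in Tyr. Dct held a second match at -232. The letters occur in 1239 of 32851 RefSeq promoter windows, or 3.77%. Among the 15 genes most selective for melanocytes by the ratio described below, 10 had an entry and 2 held the motif, Tyrp1 and Fabp3. The pigment gene Oca2 and the lineage genes Mitf, Kit and Ednrb had entries without these letters. Mlana and Pmel had no entry.

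Pigment genes outside the rule were carried mainly by the 78 cells. Tyr, tyrosinase, the first enzyme of melanin synthesis, stood at 629, 723 and 385 CPM in members after tropicamide and 613, 388 and 332 CPM after saline. The groups overlapped, and the mean was 1225 CPM in the 78 cells, 49.8 in pigment-poor cells and 130 in RPE cells. Oca2, which sets melanosome pH, averaged 1829 CPM in the 78 cells and 121 in RPE cells. Slc45a2 averaged 1044 CPM against 26.1 in RPE cells, and Mlph, the melanophilin that ties melanosomes to myosin, 878 against 5.95. Trpm1, a melanocyte and bipolar cell channel, and Gpnmb, a melanosome glycoprotein, stood at 1583 against 147 CPM and 2716 against 285 CPM.

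The lineage list as a whole was higher in RPE cells, at 4.86% to 7.84% of UMIs by pool against 1.39% to 3.02% in the 78 cells, and it includes Ptgds, described below. Single lineage factors and receptors stood higher in the 78 cells. Ednrb averaged 2225 CPM in the 78 cells, which were chosen for it, and 12.2 CPM in RPE cells. Its UMIs were found in 42.0% of the 193 cells and in 0.0995% to 1.68% of rods, whose median depth was 2180 to 2456.5 UMIs by pool. Sox10 averaged 203 CPM in the 78 cells, 76.2 in Schwann cells and 38.2 in RPE cells. Mitf, the master regulator of the lineage, averaged 486 CPM in the 78 cells and 27.9 CPM in RPE cells, and Pax3, an early crest factor, 266 and 0.362. Kit, the receptor for stem cell factor, averaged 159 CPM and Met, the receptor for hepatocyte growth factor, 481 CPM in the 78 cells. Mc1r, the melanocortin receptor of skin melanocytes, averaged 9.12 CPM there. Averages over pools give the saline pools, with 2, 3 and 4 of the 78 cells, as much weight as the tropicamide pools. With the 78 cells summed, Ednrb stood at 2160 CPM, Sox10 at 143, Mitf at 291, Pax3 at 213 and Kit at 98.9.

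Ligands of EDNRB and KIT were higher in other classes. Edn3, the endothelin that binds EDNRB, averaged 818 CPM in fibroblasts and 2.44 CPM in the 78 cells. Kitl, which encodes stem cell factor, averaged 450 CPM in fibroblasts, 379 in Schwann cells and 99.4 in the 78 cells. These are levels per pool averaged over 6 pools, with no test.

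The genes most selective for members were ranked by their mean CPM over the highest mean among RPE cells, Schwann cells, fibroblasts and rods. A highest mean under 5.43 CPM, the level of 3 UMIs in the summed Schwann cells, was raised to that value, so ratios of genes nearly absent from all 4 classes, among them Cck, Gjb2 and Gjb6, are held down by it. Cck, a neuropeptide precursor, led at 106 times, with 832, 809 and 781 CPM after tropicamide and 318, 354 and 359 CPM after saline. In pigment-rich cells its groups overlapped, at 1234, 1105 and 831 CPM against 404, 1181 and 681 CPM. Syt4 followed at 99.7 times, Ednrb at 41.5, Fstl4 at 39.8, Hpse, the heparan sulfate-cleaving heparanase, at 29.6, and Gjb2, a gap junction connexin, at 24.8. The connexin Gjb6 had no UMI in RPE or Schwann cells and averaged 118 CPM in members. The gate used other genes of the same cells, so these ratios describe the gate and carry no test. One gene in this ranking rested on a single pool: Cdh1, the E-cadherin gene, stood at 438 CPM in saline pool 2 and at 11.4 to 97.5 CPM in the other pools.

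**Figure D2:**
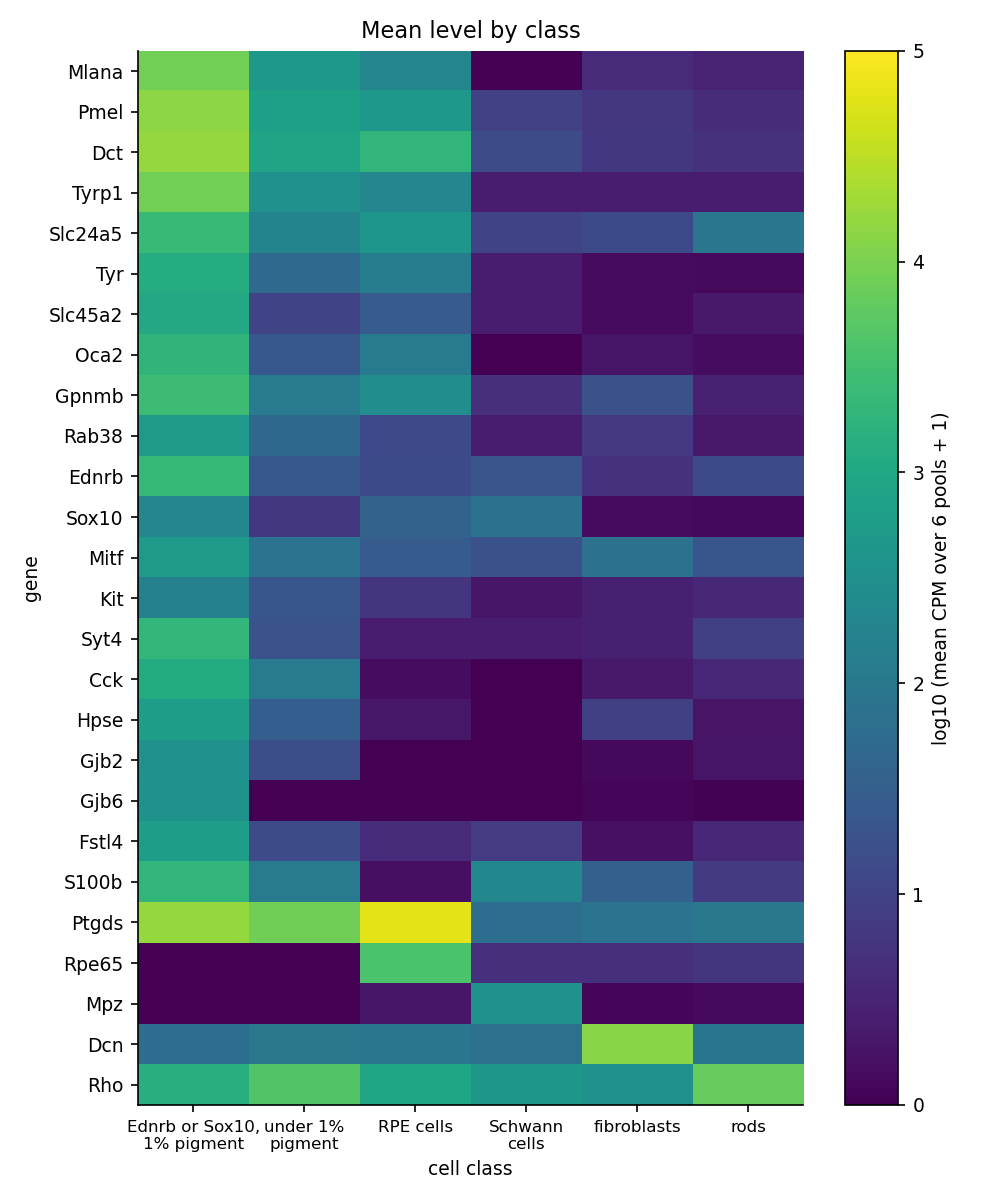
Mean level over 6 pools, as log10 of CPM plus 1, of pigment genes, lineage genes, genes selective for members and class markers (rows) in 2 kinds of members and 4 comparison classes (columns). The first column, the 78 pigment-rich cells with Ednrb or Sox10, is bright from Mlana to S100b, while Ptgds is brightest in RPE cells.

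Ptgds, the prostaglandin D synthase, was abundant and varied between pools of 1 group. It stood at 10499, 14425 and 42420 CPM in tropicamide pools 1 to 3 and at 4576, 6560 and 27474 CPM in saline pools 1 to 3. Pool 3 was the highest of each group, and the groups overlapped. In pigment-rich cells Ptgds stood at 15942, 19330 and 48321 CPM after tropicamide and 5262, 21376 and 13250 CPM after saline. Saline pool 2 was thus the highest saline pool there. Pigment-poor cells held 2428 of the 3932 Ptgds UMIs of saline members and 238 of the 9358 of tropicamide members. RPE cells averaged 63333 CPM of Ptgds, and a Ptgds UMI was found in 19.7% to 30.4% of rods after tropicamide and 5.07% to 11.4% of rods after saline. The part of Ptgds RNA from other cells in the members' level was not tested.

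Melanocytes were a larger share of kept barcodes in every tropicamide pool. They numbered 77, 61 and 25 in tropicamide pools 1 to 3, or 0.817%, 0.454% and 0.199% of kept barcodes. They numbered 10, 7 and 13 in saline pools 1 to 3, or 0.106%, 0.0672% and 0.121%. The groups did not overlap, but tropicamide pool 3 (95% Wilson interval 0.135% to 0.293%) and saline pool 3 (0.0708% to 0.207%) overlapped in their counting intervals. The means were 0.490% ± 0.311 (SD, n = 3) and 0.0982% ± 0.0278 (SD, n = 3), a 4.99-fold difference. The two-sided exact permutation test of logit shares gave p = 0.1, the smallest p that 20 arrangements allow.

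The difference in share was smaller among barcodes that were not rods. Of these, melanocytes made up 3.20%, 1.82% and 1.21% after tropicamide and 0.636%, 0.512% and 0.630% after saline, a log2 difference of 1.81 against 2.32 for all barcodes. RPE cells of the same pools numbered 244, 628 and 376 after tropicamide and 88, 75 and 186 after saline. With no limit on Rpe65 and Ttr the log2 difference in share was 1.80. The 78 cells split into 31, 29 and 9 after tropicamide and 2, 3 and 4 after saline, a log2 difference in share of 2.82, again with p = 0.1 by the exact permutation test. RPE and melanocyte numbers thus moved together across the groups.

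**Figure D3:**
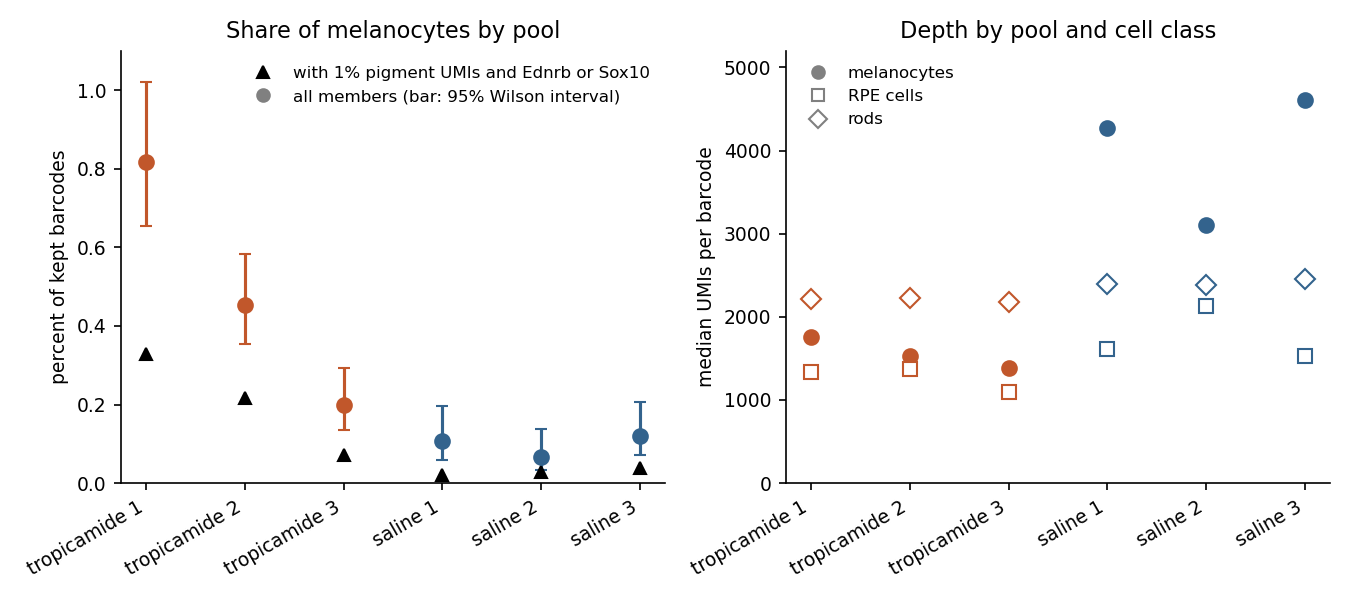
Left, melanocytes as a percent of kept barcodes in each pool (circles, with 95% Wilson intervals as bars) and the 78 pigment-rich cells with Ednrb or Sox10 (triangles). Right, the median UMIs per melanocyte, RPE cell and rod in each pool, tropicamide in orange and saline in blue. Shares run from 0.199% to 0.817% after tropicamide and from 0.0672% to 0.121% after saline, and the melanocyte medians differ by more than those of rods.

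Melanocytes were shallower in the tropicamide pools. Their median depth per pool was 1760, 1532 and 1382 UMIs after tropicamide and 4273, 3105 and 4612 UMIs after saline, a log2 difference of -1.35 (exact permutation p = 0.1, the smallest possible). RPE cells and rods of the same pools differed the same way by less, with log2 differences of -0.46 and -0.13. Summed over members, the pools held 305170, 174285 and 85808 UMIs after tropicamide and 88076, 59295 and 114291 in the saline pools. The deepest single cell gave 6.31%, 10.2% and 18.4% of these sums after tropicamide and 49.2%, 65.9% and 38.1% after saline. Each saline sum of gene counts is thus weighted towards 1 cell.

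Gene levels in melanocytes were compared with edgeR's quasi-likelihood test on UMIs summed per pool. Of 1988 genes that passed the filter on low counts, 0 reached a Benjamini-Hochberg adjusted p under 0.05, or 0% called, and the smallest adjusted p was 0.53. At an unadjusted p under 0.05 there were 131 genes (6.59%). DESeq2 called 11 genes. The 3 pools of each group did not overlap for 14.3% of genes, 11.1% higher and 3.17% lower after tropicamide. edgeR also called 0 of 1264 genes in pigment-rich cells (61 or 4.83% unadjusted, with 9.49% not overlapping, 5.54% higher and 3.96% lower). It called 0 of 538 in the 78 cells (17 or 3.16% unadjusted, with 8.36% not overlapping, 3.35% higher and 5.02% lower). In RPE cells of the same pools it called 1739 of 6144 genes, or 28.3%, with 9.59% higher and 18.7% lower, and there 39.2% passed unadjusted and 41.6% did not overlap, 14.9% higher and 26.7% lower. In simulated data of the same size, 10.9% of 2-fold and 70.8% of 4-fold changes were recovered over 1988 genes.

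The 10 genes of smallest p did not pass, and several of them were carried by single cells. Mgp, matrix Gla protein, an inhibitor of calcification typical of fibroblasts and vessel walls, stood at 252, 367 and 105 CPM after tropicamide and 0, 0 and 35.0 CPM after saline. Of its 77 UMIs in tropicamide pool 1, 67 came from 1 cell, and of 64 in pool 2, 56 did. Of the 150 Mgp UMIs of all tropicamide members, 127 lay in 6 pigment-poor cells. Erbb4, a neuregulin receptor, stood at 42.6, 17.2 and 23.3 CPM after tropicamide and 193, 135 and 122 CPM after saline, with 7 to 11 of each saline pool's 8 to 17 UMIs in 1 cell. Irf1, Bhlhe40, Pim1 and Pdcd4, regulators of transcription, kinase signalling and translation, were also lower in every tropicamide pool, at log2 fold changes of -1.78, -1.55, -1.98 and -1.62 (edgeR adjusted p = 0.59 for each). In pigment-rich cells the pools of Bhlhe40 overlapped, at 113, 112 and 228 CPM against 591, 0 and 140 CPM. In saline pool 2, 21 of 22 Pdcd4 UMIs and 9 of 10 Pim1 UMIs came from 1 cell.

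Genes that were higher after tropicamide and spread over many cells were Tmod1, Scrg1 and Cmss1. Tmod1, tropomodulin, which caps actin filaments, stood at 174, 230 and 152 CPM after tropicamide and 56.8, 50.6 and 52.5 CPM after saline, with a UMI in 22 of 77, 15 of 61 and 7 of 25 cells against 3 of 10, 2 of 7 and 3 of 13. Its log2 fold change was 1.64 ± 0.37 (SE; edgeR adjusted p = 0.59), and 0.75 without the deepest cell of each pool. Scrg1 stood at 141, 178 and 152 CPM against 34.1, 33.7 and 61.2 CPM, with a log2 fold change of 1.63, and 0.85 without those cells. Both sets of pools stayed apart in either form, and neither gene passed. The 78 cells held 101 of the 120 Tmod1 UMIs and 84 of the 99 Scrg1 UMIs of all members. Only 10 UMIs of each gene came from the saline cells among the 78. The part of the mix of cells in these fold changes was not tested.

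Cmss1, a ribosomal small subunit homolog, had the smallest p of all genes in pigment-rich cells and was in nearly every cell. In members it stood at 1691, 2129 and 2063 CPM after tropicamide and 545, 675 and 569 CPM after saline, with a UMI in 69 of 77, 53 of 61 and 22 of 25 cells against 8 of 10, 7 of 7 and 12 of 13. The groups did not overlap, and the log2 fold change was 1.54 ± 0.42 (SE; edgeR adjusted p = 0.61, DESeq2 adjusted p = 0.0207). It was 1.16 without the deepest cell of each pool, 1.26 in the 78 cells, 1.07 with cells thinned to 1000 UMIs, and 0.91 to 1.76 over all alternatives. Rods of the same pools held 687, 604 and 722 CPM of Cmss1 after tropicamide and 537, 499 and 580 CPM after saline, and RPE cells 1560, 1404 and 1759 against 1321, 1186 and 1123 CPM. All 3 classes thus had the tropicamide pools above the saline pools.

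Mitf had lower values after tropicamide that did not pass the test. In members it stood at 184, 138 and 117 CPM against 341, 135 and 245 CPM, and the groups overlapped (log2 fold change -0.85, edgeR adjusted p = 0.71). Without the deepest cell of each pool the values were 196, 153 and 100 CPM against 380, 346 and 354 CPM, with no overlap and a log2 fold change of -1.22. In pigment-rich cells the pools did not overlap either (log2 fold change -0.97), and in the 78 cells they were 281, 213 and 85.9 CPM against 1468, 409 and 456 CPM. With scored doublets removed the fold change was -0.20, and none of these passed.

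By list, pigment genes were mostly above 0 in all members and not in the 78 cells. Of 30 pigment genes outside the rule 15 were tested, 14 of them above 0 with a median log2 fold change of 0.42, and 4 had pools that did not overlap (Slc45a2, Rab38, Cd63 and Mlph), beside 11.1% of all 1988 genes and a median of -0.04 over them. In pigment-rich cells 7 of 13 were above 0 with a median of 0.02, and in the 78 cells 4 of 12 with a median of -0.15. Of 27 lineage genes 11 were tested in members, 8 above 0, with a median of 0.51. Pools were higher without overlap for 4 of them, beside 11.1% of all genes. Among the 4 were Ednrb, S100b and Tbx2, a T-box factor. In pigment-rich cells 8 of 12 lineage genes were above 0 with a median of 0.23, 0 higher and 1 lower without overlap, and in the 78 cells 2 of 6 were, with a median of -0.33. The share of UMIs from pigment-poor cells was highest in saline pools 2 and 3. In saline pool 1 it was 21.2%, below that of tropicamide pools 1 and 2. Ednrb and Slc45a2 were lowest in saline pool 1, at 295 and 204 CPM. Of the 78 cells, those in saline pools 1 to 3 gave 8174 of 88076, 17116 of 59295 and 37289 of 114291 member UMIs. Those in tropicamide pools 1 to 3 gave 174366 of 305170, 112453 of 174285 and 34909 of 85808. The part of the mix of the 3 kinds of cells in these counts was not tested.

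The other lists gave no gene past the threshold by edgeR. All 10 rod genes were above 0 in members, 5 without overlap beside 11.1% of all genes, with a median of 0.86, and 8 of 10 in pigment-rich cells with a median of 0.53. Of 15 glucocorticoid-responsive genes 7 were tested and 0 were above 0, with a median of -0.47, but 4 of 7 were above 0 without the deepest cell of each pool (median 0.15). Of 13 iron, oxidation and lysosome genes 9 were tested, 6 above 0 and 3 below, and 1 was lower without overlap beside 3.17% of all genes. Beside 11.1% of all genes, 4 were higher without overlap: the ferritin chains Fth1 and Ftl1, the glutathione transferase Gstp1 and the peroxiredoxin Prdx1. All 80 tested cytosolic ribosomal protein genes were below 0 with a median of -0.86, but 57 of 80 were above 0 without the deepest cell of each pool (median 0.10), and these genes held 19.9% of member UMIs in saline pool 2 against 4.82% to 7.38% elsewhere.

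Muscarinic receptors, the targets of tropicamide, were rarely detected. Chrm1, Chrm4 and Chrm5 had 0 UMIs in 193 cells, which allows a share of up to 1.55% of cells with a UMI. Chrm2 had a UMI in 6 cells and Chrm3 in 4, and 70 of the 80 Chrm3 UMIs were in 1 cell. In the 78 pigment-rich cells with Ednrb or Sox10 none of the 5 receptors had a UMI, a limit of 3.85%.

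Immediate early genes, the transcription factors and regulators that cells switch on within minutes of a stimulus, were lower after tropicamide when all members were summed. The 20 listed genes made up 0.782%, 1.03% and 0.625% of UMIs in tropicamide pools 1 to 3 and 1.91%, 1.35% and 1.48% in saline pools 1 to 3. Of 14 tested genes 1 was above 0, the median log2 fold change was -1.19, and 7 were lower with no overlap, beside 3.17% of all genes. Atf3, a stress-induced factor, stood at 105, 304 and 58.3 CPM against 1487, 1265 and 665 CPM, and Klf6 at 91.8, 103 and 46.6 CPM against 897, 573 and 175 CPM. Their log2 fold changes were -3.04 and -2.88 (edgeR adjusted p = 0.53 for both). Egr1, a growth factor-induced factor, overlapped at 718, 889 and 291 CPM against 1590, 860 and 1575 CPM (log2 fold change -1.23).

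In each saline pool most of the list's UMIs came from 1 cell. Of the 131, 75 and 76 Atf3 UMIs of the saline pools, 125, 71 and 64 came from 1 cell each. Over the whole list the leading cell held 82.1%, 66.4% and 65.5% of the list's UMIs in the saline pools and 14.3%, 16.9% and 39.0% in the tropicamide pools. The deepest cell of saline pools 1 to 3 gave 49.2%, 65.9% and 38.1% of all UMIs. In saline pool 2 the leading cell's part of the list was thus near the deepest cell's part of all UMIs. Fos stood at 3019 CPM in that pool without its deepest cell and at 2007 CPM with it. The median share over cells, which no single cell can set, was 0.153%, 0.133% and 0.129% after tropicamide against 0.112%, 0.151% and 0.273% after saline, with overlap.

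Without the deepest cell of each pool, an alternative chosen after seeing the data, the list was level between groups. Of 11 genes tested 5 were above 0, the median was -0.04, and 1 was higher and 1, Egr1, lower with no overlap. Over all 1324 genes tested there, 8.69% did not overlap, 4.98% higher and 3.7% lower, 3.1% had an unadjusted p under 0.05 and edgeR called 0. Fos stood at 1836, 2006 and 2101 CPM after tropicamide and 1207, 3019 and 1994 CPM after saline. Its log2 fold change was -0.04, and that of Atf3 was 0.05. In the 78 cells the list held 0.977%, 1.14% and 0.914% of UMIs against 0.110%, 1.55% and 1.07%, again with overlap. With the 1% threshold alone, in the 137 pigment-rich cells, 1 of 13 tested genes was above 0 and 5 were lower with no overlap (median -0.79), beside 3.96% lower over all 1264 genes.

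**Figure D4:**
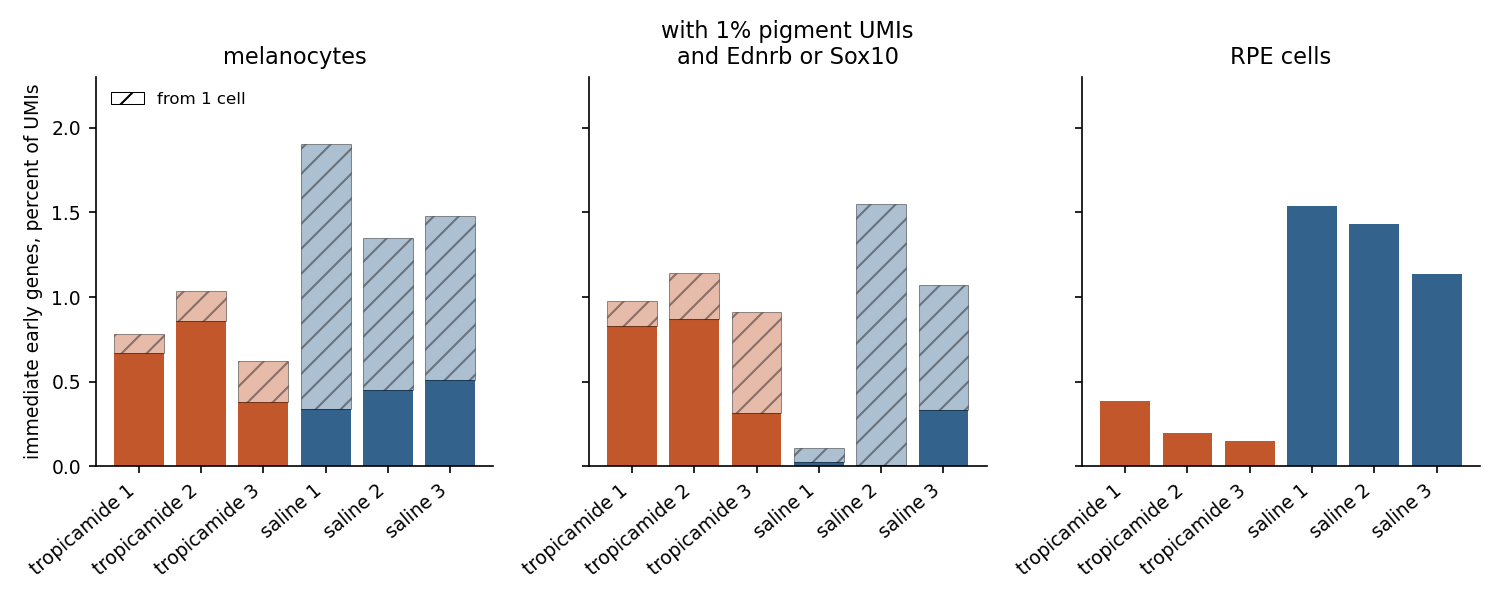
Immediate early genes as a percent of UMIs in each pool, for all melanocytes, the 78 pigment-rich cells with Ednrb or Sox10, and RPE cells. Hatching marks the part held by the 1 cell with the most list UMIs, not computed for RPE cells. In saline melanocytes that cell holds 65.5% to 82.1% of the bar, while the RPE bars stand at 1.13% to 1.54% after saline and 0.150% to 0.388% after tropicamide.

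The change after tropicamide was then compared with that in RPE cells of the same pools, the other pigmented class. In those RPE cells all 13 tested genes of the RPE list were above 0, with a median log2 fold change of 0.69. edgeR called 12 of them higher, beside 9.59% of all genes tested there. The list includes the 6 genes that chose the class. Whether the make-up of the RPE class differed between groups was not tested. The comparison used the class by group term of an edgeR model with pool as a factor. Of 5838 genes 1 passed (0.0171%, against 12.4% at an unadjusted p under 0.05): Mgp, with a log2 difference of 5.55 between the melanocyte and RPE changes (edgeR adjusted p = 0.0429). Mgp in RPE cells stood at 48.9, 47.5 and 43.0 CPM after tropicamide and 21.2, 11.6 and 339 CPM after saline, so saline pool 3 set the RPE side. Left out in turn, tropicamide pools 1, 2 and 3 and saline pool 3 each ended this call, at edgeR adjusted p values of 0.0611 to 0.236, and so did the 1% pigment threshold, at 0.0937. Without saline pool 2 there were 45 calls, and without saline pool 1 there were 4. Mgp was among the calls without saline pool 1, saline pool 2 or scored doublets (5.38, edgeR adjusted p = 0.0485), and without the deepest cell of each pool (6.83, edgeR adjusted p = 0.000151). Cstf3, Prkg1, Pde4d and Rorb came next and differed by 2.74 to 3.23 (edgeR adjusted p = 0.0603 for each).

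Without the deepest cell of each pool, left out of the melanocytes only, the same test called 92 of 6300 genes (1.46%). In 83 of them the change was higher in melanocytes. Of the 83, 81 were genes that fell in RPE cells by their own edgeR test, beside 18.7% of the 6144 genes tested there. The difference subtracts the RPE change, so a fall in RPE cells favours such a call. Some called genes, among them Mgp, Lsamp, Car2, Pak3 and B3galt1, did not pass the filter on low counts in these melanocytes alone. Pde4d, a cAMP phosphodiesterase, stood at 934, 1259 and 629 CPM after tropicamide and 849, 1188 and 537 CPM after saline, with overlap. In RPE cells Pde4d stood at 50.7, 49.7 and 48.9 CPM after tropicamide and 242, 361 and 335 CPM after saline. In the pigment-rich cells the test called 15 genes of 5236, of which 13 were among the 92.

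Immediate early genes were then compared between the classes. With all members in, 0 of 16 tested genes passed, 13 had a higher log2 fold change in melanocytes than in RPE cells, and the median difference was 1.12 beside 0.13 over all genes. In RPE cells alone 14 of 16 tested list genes fell by edgeR, and the part of that class's make-up in the fall was not tested. In the pigment-rich cells 1 of 16, Fos, passed, at 2.09 (edgeR adjusted p = 0.0245).

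Without the deepest cell of each pool the list differed more, but those cells were left out after they had been seen to weigh on the saline sums, and from melanocytes only, so the counts that follow depend on that choice. All 16 had a higher log2 fold change in melanocytes, with a median difference of 2.46 beside 0.07 over all genes. Of them 9 passed: Jun, Junb, Fos, Ier2, Jund, Zfp36, Ier3, Btg2 and Klf2. In these melanocytes alone 11 list genes passed the filter on low counts, and Klf2 was not among them. Klf2 did not pass in RPE cells either (log2 fold change -0.72, edgeR adjusted p = 0.216). For Jun, a subunit of the AP-1 factor, the difference was 2.75 (edgeR adjusted p = 0.000681), against 1.54 (edgeR adjusted p = 0.299) with all members in. Its melanocyte levels in this form were 1340, 2051 and 1043 CPM after tropicamide and 872, 1683 and 1160 CPM after saline, and its RPE levels 551, 281 and 190 CPM against 2323, 2357 and 1378 CPM.

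**Figure D5:**
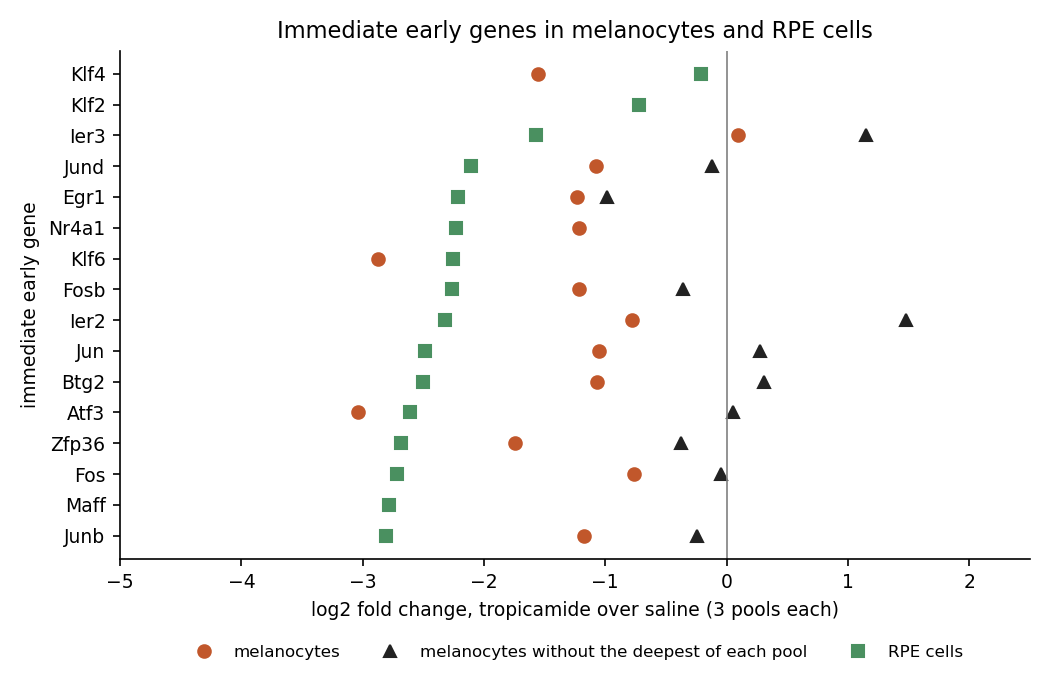
Log2 fold change (tropicamide over saline, 3 pools each) of each tested immediate early gene in all melanocytes (circles), melanocytes without the deepest cell of each pool (triangles) and RPE cells (squares). Where a mark is missing the gene did not pass the filter on low counts in that set. Each of the 11 triangles lies nearer 0 than the square of its gene, from -0.99 for Egr1 to 1.48 for Ier2.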

How the data were processed

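The authors deposited 6 filtered matrices of raw UMI counts per gene and cell barcode that Cell Ranger 8.0.1 produced, per the file headers, with STAR and build GRCm39 named in the submitters' processing notes. How introns were counted and cells called is not stated. The extraction text in the labels describes bone tissue and was not used. Libraries held 30761887 to 49477707 UMIs over 33696 genes, and kept barcodes had a median of 2203 to 2538 UMIs.

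The members, gene lists and comparison classes were chosen with earlier results of these data known. UMI counts were summed over members per pool and tested with edgeR 4.0.16 (R 4.3.3): quasi-likelihood test, TMM scaling, filterByExpr, group only, Benjamini-Hochberg adjusted p under 0.05. Shares and median depths were tested with two-sided exact permutation tests over pools. Doublets were scored by simulation and kept, and 7, 12 and 4 members of tropicamide pools 1 to 3 and 3, 1 and 1 of saline pools 1 to 3 scored as doublets. The labels do not say that pools are more than pooled eyes of 1 group, and p-values measure the spread between pools. Alternatives were DESeq2 1.42.0, other cell, count and rule limits, pools left out and a replicate block. The 1% pigment threshold, the Ednrb or Sox10 split and the removal of the deepest cell of each pool were added after seeing the data. Named genes were the 10 of smallest p, since 0 passed, up to 4 of smallest p per list, the 5 of smallest p for the interaction, 15 by ratio between classes, and a fixed set of pigment, lineage and receptor genes. Other genes named beside a count were chosen after their values were seen. The model was checked on simulated data. Intervals and limits at 0 cover counting error only.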

Additional observations from a re-analysis of the deposited data

Results flagged for a closer look

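The tropicamide change of Mgp differed between melanocytes and RPE cells by 5.55 on the log2 scale in the test of the difference itself (edgeR adjusted p = 0.0429, 3 pools per group). In melanocytes 67 of the 77 Mgp UMIs of tropicamide pool 1 and 56 of the 64 of pool 2 were in 1 cell. Pigment-poor cells, 6 in all, held 127 of the 150 tropicamide UMIs, and pigment-rich cells 23. In RPE cells saline pool 3 stood at 339 CPM against 11.6 and 21.2 CPM in the other saline pools. Of 10 fibroblast genes Mgp was the 1 tested in members, and the part of fibroblast RNA in its level was not tested. Groups of 3 pools are too small for a check of single outlying pools.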

How the results depend on the processing

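The melanocyte share stayed higher after tropicamide under all 18 alternatives, with log2 differences of 1.73 to 2.82, and the median depth stayed lower under all 13, at -1.88 to -1.02. The count of genes called in melanocytes was 0 with edgeR, 11 with DESeq2, 230 with no low-count filter and 4 in pigment-rich cells with fewer than 2 epithelial genes, and 0 under the other 17 alternatives, each pool left out included. Of the 14 named fold changes, Atf3 turned to 0.0513 without the deepest cell of each pool. Fos turned to 0.30 under the stricter cell filter, 0.0265 with cells thinned to 1000 UMIs and 0.0818 in pigment-rich cells with Ednrb or Sox10. The cause was not tested. The count of genes that differed from RPE cells was 1. It was 0 with DESeq2 size factors, 238 with no low-count filter, 2 without scored doublets, 15 in pigment-rich cells, 92 without the deepest cell of each pool and 0 to 45 with a pool left out, with 0 in 4 of those 6 fits.

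Same-numbered pools correlated at 0.09, 0.17 and 0.11 in their deviations in members, above the other pairs at -0.15 to 0.04. In RPE cells they correlated at -0.03, -0.02 and 0.04, with other pairs at -0.07 to 0.08. In rods they correlated at -0.01, 0.02 and -0.37, with other pairs at -0.30 to 0.35. The labels state no pairing, and the numbers were taken as names only. With a replicate block edgeR called 0 genes, and the share gave an exact permutation p of 0.25, the smallest that 8 arrangements allow.

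Depth limits the gene tests. Saline pools held 7 to 13 melanocytes, and in saline pool 2 the deepest cell gave 65.9% of UMIs. A gene that did not pass is not shown to be unchanged.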

Other observations

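Mc1r, the melanocortin receptor, had no UMI in the saline pools and stood at 13.1, 11.5 and 11.7 CPM after tropicamide. At 0 UMIs in 59295 to 114291 the saline pools cannot be told from such a level. Kit had no UMI in tropicamide pool 3 and 135 CPM in saline pool 2. The immediate early list in rods of the same pools held 0.449%, 0.374% and 0.301% of UMIs after tropicamide and 0.307%, 0.227% and 0.429% after saline, with overlap. In fibroblasts it held 2.26% to 2.46% after tropicamide and 2.57% to 2.78% after saline, and in Schwann cells, 5 to 23 barcodes a pool, 3.17% to 3.31% and 2.09% to 3.09%, in both without overlap. No test was run on these shares.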
